A study of Mus musculus with 4 samples.

Results

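Kinesins are microtubule motors, and 41 genes of this family were followed in mouse T helper 2 (Th2) cells grown with the cannabinoid receptor 2 agonist HU-308 or with its vehicle DMSO. They are the protein-coding rows of the count table whose name is Kif followed by a digit or by c, without Kif3a and without Kif1bp, which encodes a kinesin-binding protein. They make up 41 of 54532 gene rows. By their known roles 14 were classed as mitotic, 16 as transport and 11 as other kinesins. RNA was sequenced in 4 libraries, 2 from the DMSO group and 2 from the HU-308 group. All cells were wild type and are labelled as coming from the bleomycin-induced model of systemic sclerosis, a fibrosing disease of skin and lung. Naive CD4+ cells were driven towards the Th2 fate in the presence of HU-308 or DMSO. On day 4 beads against CD3 and CD28 reactivated them, and RNA was taken after a further 12 h. The comparison addresses the effect of HU-308 on the Th2 transcriptome. No group lacked the receptor. The origin of the replicates (animals or cultures) is not stated, so p-values measure the spread between libraries, which may be technical. The family was chosen by a rule on gene names and split into classes by known roles. Both were done with the HU-308 and DMSO read counts and the fold changes from them already in view.

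Kinesins use the energy of ATP to walk along microtubules or to take microtubules apart. Mitotic kinesins build the spindle, move chromosomes and complete cytokinesis, and their transcripts are made mainly in late cell cycle phases, under a shared control by the DREAM and MYBL2-FOXM1 complexes. Transport kinesins carry organelles, vesicles and RNA or tune microtubule growth in interphase, and in T cells the microtubule network turns towards the target cell at the immune synapse. Activated CD4+ T cells divide rapidly.

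The libraries held 16145298 to 20479254 counts, and 20525 to 21319 genes were detected in each. The T cell markers Cd3e, Cd3g, Cd4, Cd28, Trac and Gata3 had reads in every library. Their summed level was 1747 to 1947 CPM (CPM being read counts scaled to the TMM-adjusted library size). Within that sum Gata3 was lower in both HU-308 libraries, at 492.6 and 486.3 CPM with DMSO and 384.6 and 302.4 with HU-308. Cd3e was higher in both, at 164.0 and 176.1 CPM against 210.8 and 226.9, and the remaining T cell markers overlapped. Markers of other cells were mixed: Lyz2, Klrb1c, Col3a1, Dcn and Hbb-bs had no read, whereas Adgre1, Pdgfrb and Cd8b1 of the same lists were expressed. The B cell list summed to at most 3.73 CPM. The neuron list, relevant to neuronal kinesins, summed to 3.40 to 8.83 CPM, most of it from Map2. The myeloid list summed to 41.5 and 77.8 CPM with DMSO and to 30.5 and 63.1 with HU-308, nearly all of it from Adgre1. That of fibroblasts came mostly from Pdgfrb and summed to 19.6 and 30.7 CPM with DMSO and to 42.5 and 46.1 with HU-308. The cytotoxic T and NK cell list summed to 12.1 to 13.9 CPM, nearly all of it from Cd8b1, and that of red cells to 0.923 to 2.09. The part of these markers in the kinesin values was not tested. In bulk RNA, fewer cells of a kind or of a cell cycle phase and less RNA per cell cannot be told apart.

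Mitotic motors held most of the summed level of the 41 genes. In FPKM, the authors' level scaled for gene length and depth, which allows genes to be compared, mitotic kinesins held 71.2% and 66.1% of the sum over the 41 genes with DMSO. Kif3a, a kinesin that fits the name pattern but was excluded by name, and Cenpe, a kinesin named otherwise, are not in that sum. With HU-308 mitotic kinesins held 73.4% and 72.6%. Transport kinesins held 24.6%, 29.8%, 22.9% and 23.9% in the same order, and the other kinesins 3.44% to 4.18%. Of 13 tested mitotic genes, 11 had a DMSO mean of at least 10 FPKM. Kif14, at 9.34 ± 1.33 FPKM (SD, n = 2), and Kif18a, at 3.14 ± 0.436 FPKM, were the exceptions. On GENCODE M21 exon length Kifc5b would also be below it, at 7.18 ± 1.01 in place of 10.1 with the deposited length. Only 4 of 13 tested transport kinesins (Kif5b, Kif3b, Kif1c and Kif21b) and 1 of 5 other kinesins (Kif2a) reached that level.

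At the top of the order with DMSO stood Kif11, the motor that pushes spindle poles apart, at 70.3 ± 13.5 FPKM (SD, n = 2), Kif5b, the ubiquitous heavy chain of conventional kinesin, at 50.01 ± 5.19 FPKM, and Kif23, the motor subunit of centralspindlin, at 40.5 ± 0.608 FPKM. The place of Kif11 depends on gene length. The deposited length of Kif11 is 4819 bases, whereas its exons cover 7461 bases in GENCODE M21, and on that length Kif11 stood at 45.4 ± 8.76 and Kif5b at 46.3 ± 4.80, which differ by less than their spread. Next came Kifc1 (25.8 ± 2.39 FPKM), Kif18b (25.6 ± 3.10), Kif3b (25.4 ± 1.74) and Kif20a (22.1 ± 5.61), neighbours whose levels overlapped between libraries. Kif21b was 15th with DMSO at 12.0 ± 0.239 FPKM and 7th with HU-308 at 27.9 ± 1.15.

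Of the 41 members, 10 were left out of the test for low counts. No read was counted for Kif2b, Kif6, Kif12, Kif21a and Kif28 in any library. A count of 0 allows up to 0.146 to 0.186 CPM, taken on library totals without TMM adjustment and for counting error only. Kif26a, Kif26b and Kif27 had 1 read each, Kif17 had 3 reads in all and Kifc3 had 32, between 5 and 15 per library.

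In some subfamilies nearly all RNA came from a single gene. In the kinesin-1 group Kif5b held 98.7% to 99.6% of the FPKM, with the neuronal heavy chains Kif5a and Kif5c at no more than 0.926% and 0.385%. In the kinesin-8 group Kif18b held 86.4% to 87.2%. The kinesin-2 genes followed were Kif3b, Kif3c and Kif17. Kif3b, a motor subunit that works with Kif3a, held 88.8% to 95.7% and Kif3c 4.22% to 11.03%, with Kif3a itself not in the sum. Others were shared: Kif1c led the kinesin-3 group with 39.6% to 41.5%, ahead of Kif14 with 23.7% to 27.6%, and Kif23 led the kinesin-6 group with 47.2% to 56.6%. In the kinesin-13 group Kif2c held 44.7% to 56.6% and Kif2a 36.9% to 47.3%, with Kif2a ahead in DMSO replicate 2 only. In the kinesin-4 group the leading gene differed between DMSO and HU-308. There Kif4, the chromokinesin of the anaphase midzone, held 63.3% and 59.0% with DMSO and 44.7% and 40.5% with HU-308, while Kif21b held 34.7% and 39.95% with DMSO and 53.5% and 57.8% with HU-308.

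Since the members were selected on this contrast, their fold changes and calls are a description and support nothing on their own. In the edgeR quasi-likelihood fit over 14316 genes (Benjamini-Hochberg adjusted p under 0.05), 1 of 31 tested kinesins was called higher, Kif21b, where 0.0838% of all tested genes were, and 0 were called lower, where 0.231% of all were. At an unadjusted p under 0.05 the counts were 9 kinesins higher (8.79% of all tested genes) and 1 lower (9.97%). DESeq2 and limma-voom called Kif21b alone, with 2.49% and 0.0908% of their tested genes higher and 4.56% and 0.265% lower, and limma on log2 FPKM called none. Without 1 library the edgeR fit called 0 or 1 kinesin, and over all genes from 10 to 93 higher and from 27 to 244 lower, in each case the most without DMSO replicate 2. Both HU-308 libraries lay above both DMSO libraries in 13 of 31 kinesins (25.9% of all tested genes) and below in 3 (25.4%).

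**Figure D1:**
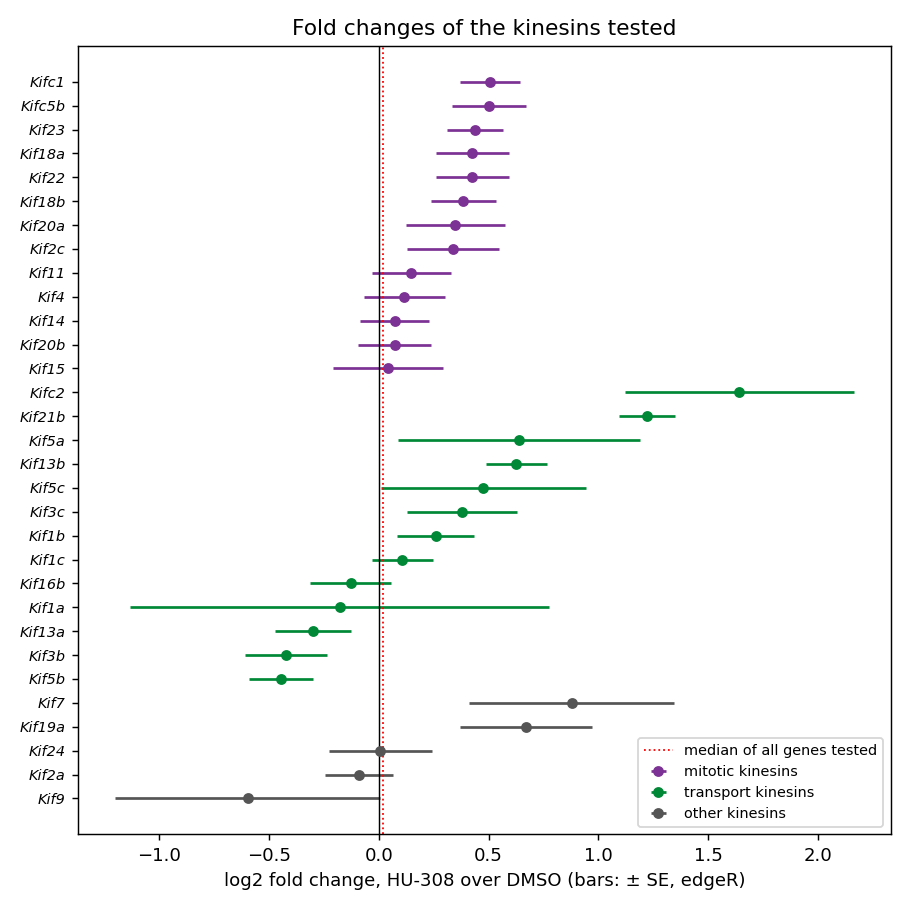
Log2 fold change of each tested kinesin, HU-308 over DMSO, with its standard error from edgeR (2 libraries per group); colours give the class and the dotted line the median of 14316 genes. All 13 mitotic kinesins lie to the right of 0, from 0.04 to 0.51, while transport kinesins range from −0.44 to 1.64.

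Mitotic kinesins formed a narrow band. All 13 tested members had a positive log2 fold change, from 0.04 to 0.51 with a median of 0.35, beside a median of 0.02 over all genes and 52.1% of all tested genes above 0. Both HU-308 libraries lay above both DMSO libraries in 7 of the 13 (25.9% of all tested genes) and the groups overlapped in 6. None was called by unpaired edgeR, DESeq2 or limma-voom, and 6 had an unadjusted edgeR p under 0.05 on the higher side (8.79% of all tested genes). The count and the median depended on single libraries: without DMSO replicate 2 the median was 0.11 and 8 of 13 were positive. Leaving out HU-308 replicate 1 gave a median of 0.30 with 9 of 13 positive.

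The motors of cytokinesis gave unlike values. Kif23, which bundles midzone microtubules, stood at 324.9 and 317.9 CPM with DMSO and at 436.4 and 435.1 with HU-308 (log2 fold change 0.44 ± 0.13 SE). Its groups were far apart relative to their spread. Kif20a, which brings the chromosomal passenger complex to the midzone, stood at 99.6 and 69.3 CPM with DMSO and at 121.0 and 94.0 with HU-308 (0.35 ± 0.23), with overlapping groups. Kif20a shares 29.3% of its exon bases with Cdc23 on the opposite strand, so reads of either gene may be counted for the other if strand was ignored. Kif20b, a motor of the midbody, stood at 137.9 and 108.5 CPM against 137.1 and 121.8 (0.07 ± 0.17). Kif14, a kinesin of cytokinesis, stood at 107.0 and 87.4 CPM against 107.3 and 96.9 (0.07 ± 0.16). For both the HU-308 libraries lay between the extremes of the DMSO libraries or at their edge.

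Among motors that build the spindle, Kif11 stood at 387.0 and 294.0 CPM with DMSO and at 401.6 and 353.7 with HU-308 (log2 fold change 0.15 ± 0.18 SE). Kif15, which can stand in for Kif11, stood at 231.9 and 152.6 CPM with DMSO and at 226.6 and 169.4 with HU-308 (0.04 ± 0.25). In these genes the libraries of a group were farther apart than the group means. Kifc1, a minus-end motor that draws centrosomes together, stood at 94.0 and 82.4 CPM with DMSO and at 124.5 and 125.7 with HU-308 (0.51 ± 0.14). Kifc5b, its close relative, stood at 29.4 and 24.1 CPM with DMSO and at 38.0 and 37.7 with HU-308 (0.50 ± 0.17). The groups were separate in both, but the genes are not independent readings: 45.8% of the 50-base stretches of the longest Kifc1 transcript also occur in Kifc5b, so reads could be split between them.

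For motors that work on chromosomes, Kif22, which pushes chromosome arms, stood at 106.0 and 88.3 CPM with DMSO and at 141.9 and 119.1 with HU-308 (0.43 ± 0.17). Kif4 stood at 123.1 and 97.1 CPM against 132.5 and 106.3 (0.12 ± 0.19), and shares 15.1% of its exon bases with Pdzd11 on the opposite strand. Kif22 groups were separate and those of Kif4 overlapped. Kif2c, which depolymerises microtubules at kinetochores, stood at 79.2 and 53.7 CPM with DMSO and at 85.6 and 82.4 with HU-308 (0.34 ± 0.21). Kif18a, which dampens chromosome movement at the metaphase plate, stood at 34.0 and 27.9 CPM against 43.0 and 40.2 (0.43 ± 0.17). Kif18b, which shortens astral microtubules, stood at 99.8 and 84.0 CPM against 124.3 and 115.6 (0.39 ± 0.15). In these 3 genes every HU-308 library was above every DMSO library, for Kif2c by a small margin.

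**Figure D2:**
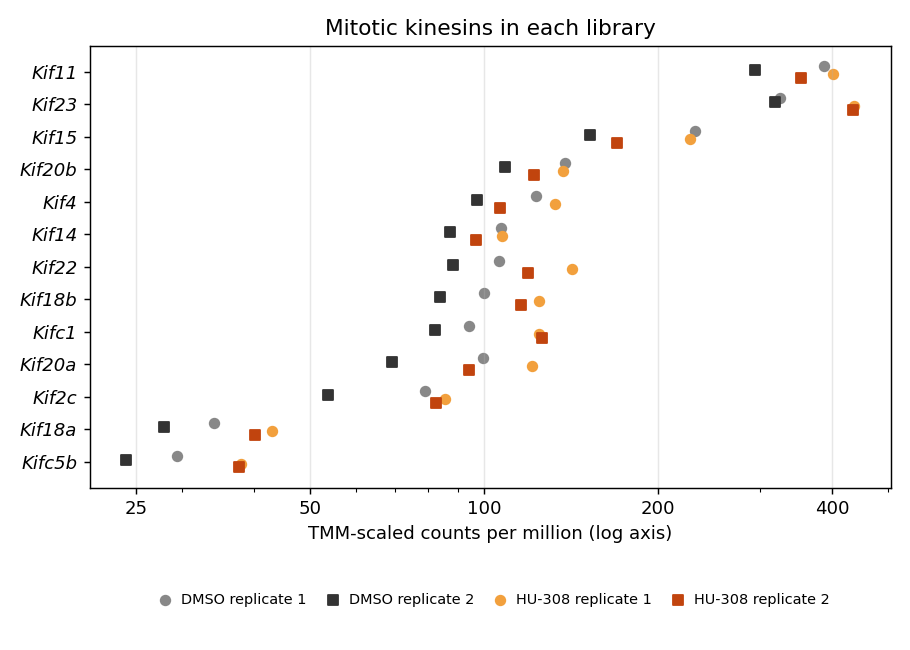
Level of the 13 tested mitotic kinesins in each of the 4 libraries, in TMM-scaled CPM on a log axis. DMSO replicate 2 is the lowest library for every gene drawn, and the HU-308 points of Kif23 (436.4 and 435.1) are the closest together relative to their distance from DMSO.

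Mitotic kinesins also differed between libraries of the same group. In 12 of 13 the second replicate was below the first in both groups, which held for 35.0% of all tested genes; Kifc1, at 124.5 and 125.7 CPM with HU-308, was the exception. The median log2 difference of replicate 2 from replicate 1 was −0.29 in DMSO and −0.15 in HU-308, beside medians of 0.0 and 0.01 over all genes. The reverse order, replicate 2 above replicate 1 in both groups, was seen in 0 of 13 mitotic and 6 of 13 transport kinesins and in 35.9% of all tested genes. Kif15 had the widest gaps, −0.60 in DMSO and −0.42 in HU-308, and Kif23 the narrowest, −0.03 and −0.004. Of 27 tested spindle and cytokinesis partners, 26 showed the same order. Among pairs of single libraries, 11 of 13 mitotic kinesins were higher in HU-308 replicate 1 than in DMSO replicate 1 and 13 of 13 were higher in either HU-308 library than in DMSO replicate 2, whereas 7 of 13 were higher in HU-308 replicate 2 than in DMSO replicate 1. The part of this library difference in the group difference was not tested.

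**Figure D3:**
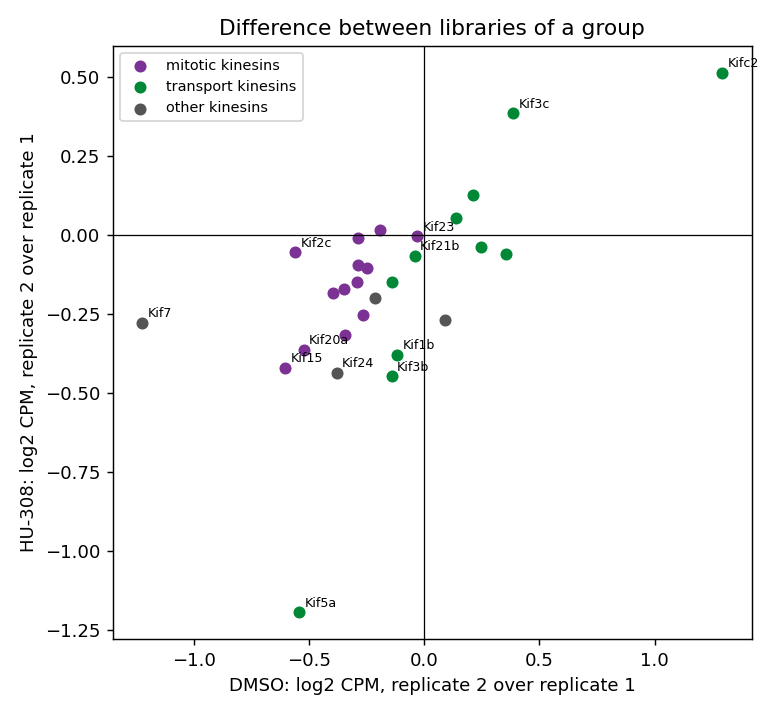
Log2 difference in CPM between the libraries of a group, DMSO on the horizontal and HU-308 on the vertical axis, for tested kinesins with a mean of at least 1 CPM. Mitotic kinesins (purple) lie in the lower left, with Kif15 at −0.60 and −0.42, except Kifc1 at −0.19 and 0.014. The lowly expressed Kif5a, Kif7 and Kifc2 are scattered widest.

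Promoter sequence was not used to choose the members, although the classes follow known roles in mitosis. RefSeq promoters (GRCm38.p6, 250 bases before to 50 after an annotated start, whose first base is position 1) were found for 32 of 41 members; those of Kif5a, Kif5b, Kif13b, Kif19a, Kif20a, Kif21b, Kif28, Kifc2 and Kifc3 were not used here. They were searched on both strands for the hexamers TTTGAA and TTCGAA, the letters of the cell cycle genes homology region (CHR) that the DREAM and MYBL2-FOXM1 complexes bind in mitotic promoters, and for CCAAT, the box of the factor NF-Y. The 13 mitotic kinesins with a promoter are not the 13 tested: they include Kif2b, which had no read, and lack Kif20a. Some starts lie inside the gene, among them those of Kif2c and Kif14. A hexamer occurred in 11 of 13 mitotic kinesins (84.6%), 1 of 10 transport kinesins and 3 of 9 other kinesins (33.3%), beside 21.7% of 27025 genes with a promoter. Within 40 bases of the start it occurred in 9 of 13 mitotic kinesins (69.2%), none of the 10 transport kinesins and 2 of 9 others (22.2%), beside 5.25% of all genes. The NF-Y box occurred in 9 of 13 mitotic (69.2%), 2 of 10 transport and 4 of 9 other kinesins (44.4%), beside 41.1% of all genes. Hexamer and box together occurred in 8 of 13 mitotic kinesins (61.5%) and in 8.61% of all genes. The octamer TTTNGCGC, an E2F-like motif, occurred in 2 of 13 mitotic kinesins (15.4%) and 1.57% of all genes. These matches are letters in a window, and no binding was measured.

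The hexamer nearest the start and 20 bases on either side are shown for the 11 mitotic kinesins that hold one, because the count of matches rests on them, 9 within 40 bases of the start and 2 farther away. They are read on the strand of the gene, 5′ to 3′, with the match in capitals (TTCAAA is TTTGAA on the other strand); the Kifc5b window ends where its promoter entry ends.
Kif11, chr19:37376343-37376388, + strand: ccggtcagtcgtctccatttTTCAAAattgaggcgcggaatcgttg
Kif15, chr9:122951042-122951087, + strand: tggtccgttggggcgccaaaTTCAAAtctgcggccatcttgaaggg
Kif22, chr7:127042412-127042457, - strand: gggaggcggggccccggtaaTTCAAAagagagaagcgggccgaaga
Kifc1, chr17:33890607-33890652, - strand: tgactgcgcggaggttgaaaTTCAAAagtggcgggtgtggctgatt
Kifc5b, chr17:26917100-26917140, + strand: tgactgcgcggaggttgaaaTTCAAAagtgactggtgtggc
Kif23, chr9:61946772-61946817, - strand: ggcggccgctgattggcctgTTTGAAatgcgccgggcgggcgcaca
Kif18b, chr11:102925096-102925141, - strand: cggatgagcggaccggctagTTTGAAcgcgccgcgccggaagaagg
Kif20b, chr19:34922345-34922390, + strand: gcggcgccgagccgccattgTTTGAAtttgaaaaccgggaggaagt
Kif4, chrX:100626064-100626109, + strand: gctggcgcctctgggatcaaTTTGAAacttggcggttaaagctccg
Kif2c, chr4:117178850-117178895, - strand: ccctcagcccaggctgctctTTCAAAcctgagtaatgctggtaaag
Kif14, chr1:136467600-136467645, + strand: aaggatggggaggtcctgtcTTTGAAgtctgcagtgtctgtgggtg

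In Kif11 the hexamer began 19 bases before the start (position −19) with the NF-Y box at −45, in Kif22 at −17 and −215 with boxes at −54 and −233, in Kifc1 at 2 with boxes at −74, −45 and 25, and in Kif18b at 4 with boxes at −30 and −53. Kif20b held 2 hexamers, at 8 and 14, and no box. Those of Kif2c (−103) and Kif14 (−228) lay far from the start. Both promoter entries lie inside the gene. That of Kif14 begins at 136467598, whereas the gene, on the + strand, begins at 136466343. That of Kif2c ends at 117179022, whereas the gene, on the - strand, ends at 117182639. Sequence at the outer 5′ end of these genes was not searched. The windows of Kifc1 and Kifc5b were identical at 39 of 41 bases. Neither hexamer nor NF-Y box was found in the Kif18a window, which held the E2F-like octamer.

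A whole promoter of each kind shows the contrast, with the motif matches in capitals.
Kif23, mitotic, chr9:61946750-61947049, - strand: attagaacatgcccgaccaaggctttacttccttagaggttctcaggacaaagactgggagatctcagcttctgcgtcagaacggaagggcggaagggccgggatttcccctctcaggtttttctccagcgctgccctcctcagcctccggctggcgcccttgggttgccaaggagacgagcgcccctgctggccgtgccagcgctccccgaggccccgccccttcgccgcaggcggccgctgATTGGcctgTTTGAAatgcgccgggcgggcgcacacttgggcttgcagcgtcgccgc
Kif3b, transport, chr2:153291166-153291465, + strand: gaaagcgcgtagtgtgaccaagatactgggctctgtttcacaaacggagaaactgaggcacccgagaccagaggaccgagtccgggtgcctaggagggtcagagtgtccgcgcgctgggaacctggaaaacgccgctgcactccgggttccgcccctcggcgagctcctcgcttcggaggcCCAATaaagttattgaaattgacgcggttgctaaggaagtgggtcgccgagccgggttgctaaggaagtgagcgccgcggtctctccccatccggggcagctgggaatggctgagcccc
In Kif23 the box on the reverse strand (ATTGG) and the hexamer stood close together, at −7 and 3. In Kif3b there was a single box, at −69, and no hexamer.

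**Figure D4:**
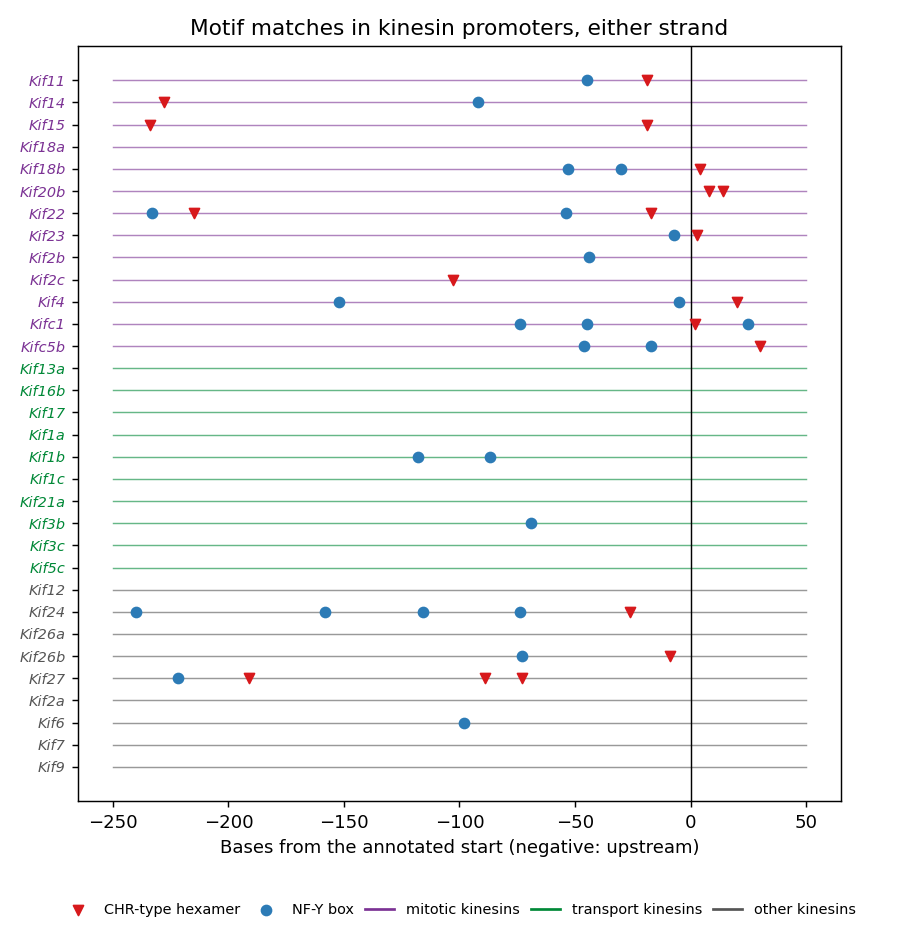
Position of CHR-type hexamers and NF-Y boxes, on either strand, relative to the annotated start in kinesin promoters; each line is 1 gene, the first listed start is drawn for genes with several, and colours of names give the class. Hexamers cluster near the start in mitotic kinesins, as at −19 in Kif11 and 3 in Kif23, and no transport kinesin has one in the starts drawn.

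Transport kinesins had no common direction. Of 13 tested members, 8 had a positive and 5 a negative log2 fold change, with a median of 0.26. That median was 0.47 without DMSO replicate 2 (14 genes tested) and 0.06 without HU-308 replicate 1. The groups were separate in 7 of 13, with HU-308 above in 4 (25.9% of all tested genes) and below in 3 (25.4%), which is near the shares over all genes.

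Kif21b rose in the HU-308 group. This kinesin-4 motor pauses microtubule growth and, in a human T cell line, is needed for the centrosome to turn quickly to the synapse. The gene (ENSMUSG00000041642) lies on the + strand of GRCm38 chromosome 1, from 136131389 to 136177998, and it stood at 149.3 and 145.1 CPM with DMSO and at 351.0 and 335.3 with HU-308. Replicates nearly coincided within each group. The log2 fold change was 1.22 ± 0.13 (SE), a fold of 2.33, with an edgeR adjusted p of 0.0472 over all genes. Leaving out DMSO replicate 1 gave 1.22 and leaving out HU-308 replicate 2 gave 1.25, with edgeR adjusted p-values of 0.0511 and 0.0641, so the call depended on these libraries. No 50-base stretch of its longest transcript occurs in a transcript of another gene, and its paralogue Kif21a had no read.

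Both HU-308 libraries lay below both DMSO libraries in Kif5b, Kif3b and Kif13a. Kif5b, which carries mitochondria and many vesicles, stood at 344.4 and 398.7 CPM with DMSO and at 261.2 and 284.9 with HU-308 (log2 fold change −0.44 ± 0.14 SE). Kif3b stood at 150.6 and 136.6 CPM with DMSO and at 123.8 and 90.8 with HU-308 (−0.42 ± 0.19). Kif13a, a carrier of recycling endosomes, stood at 24.9 and 29.6 CPM with DMSO and at 22.5 and 21.9 with HU-308 (−0.30 ± 0.17). None of these 3 genes was called with the libraries unpaired. Kif13b, the paralogue of Kif13a, had the opposite order, with 38.3 and 42.2 CPM with DMSO and 61.0 and 63.3 with HU-308 (0.63 ± 0.14), and its groups were separate.

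The remaining well-expressed carriers gave overlapping groups. Kif1c, a carrier of vesicles and RNA, stood at 112.7 and 102.4 CPM with DMSO and at 121.8 and 109.9 with HU-308 (log2 fold change 0.11 ± 0.14 SE). Kif1b, which carries mitochondria or vesicle precursors, stood at 47.6 and 43.9 CPM against 61.9 and 47.6 (0.26 ± 0.18). Kif16b, a motor of early endosomes, stood at 25.5 and 32.6 CPM against 27.1 and 26.0 (−0.13 ± 0.18). Kif3c, an alternative partner of Kif3a, stood at 8.71 and 11.4 CPM against 11.3 and 14.8 (0.38 ± 0.25), and shares 35.3% of its exon bases with the antisense gene 1110002L01Rik.

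Transport kinesins known from neurons were near the limit of detection. Kifc2, a minus-end motor, had 10 and 28 reads with DMSO and 44 and 63 with HU-308 (log2 fold change 1.64 ± 0.52 SE). The groups were separate, at low counts in all libraries. Kifc2 shares 4.15% of its exon bases with Cyhr1 on the opposite strand. Cyhr1 had 5330 reads over the 4 libraries, against 145 for Kifc2, so reads of Cyhr1 may be counted for Kifc2 if strand was ignored. Kif5a had 17 to 39 reads per library, Kif5c 11 to 18 and Kif1a 3 to 16. Their log2 fold changes, 0.64 ± 0.55, 0.48 ± 0.47 and −0.18 ± 0.95, were within or close to their standard errors.

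The 5 tested kinesins outside these classes had log2 fold changes from −0.60 to 0.88, 3 of them positive. Kif2a, a microtubule depolymerase of spindle poles and axons, stood at 96.6 and 83.2 CPM with DMSO and at 90.3 and 78.7 with HU-308 (log2 fold change −0.09 ± 0.15 SE), and shares 19.2% of its exon bases with Dimt1 on the opposite strand. Kif24, a centriolar depolymerase that restrains cilia, stood at 22.9 and 17.6 CPM against 23.4 and 17.3 (0.01 ± 0.23). Its replicate difference was −0.38 and −0.44 on the log2 scale. Replicate 2 was also below replicate 1 in both groups for Kif2a and Kif7, as for 35.0% of all tested genes. The Kif24 promoter held a hexamer at −26 and 4 NF-Y boxes. Promoters of Kif26b and Kif27, which had 1 read each, held hexamer and box too, whereas those of Kif2a and Kif7 held neither. Kif19a, which sets cilium length, had 44 and 53 reads with DMSO and 77 and 64 with HU-308 (0.67 ± 0.30). Kif7, a Hedgehog pathway kinesin of the cilium tip, had 54 and 26 reads against 75 and 62 (0.88 ± 0.47), and Kif9 of motile cilia 11 and 33 against 14 and 12 (−0.60 ± 0.60). Kif7 shares 1.11% of its exon bases with Ticrr on the opposite strand, which had 6661 reads over the 4 libraries, against 217 for Kif7. Groups were separate for Kif19a and Kif7 and overlapped for the other 3.

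**Figure D5:**
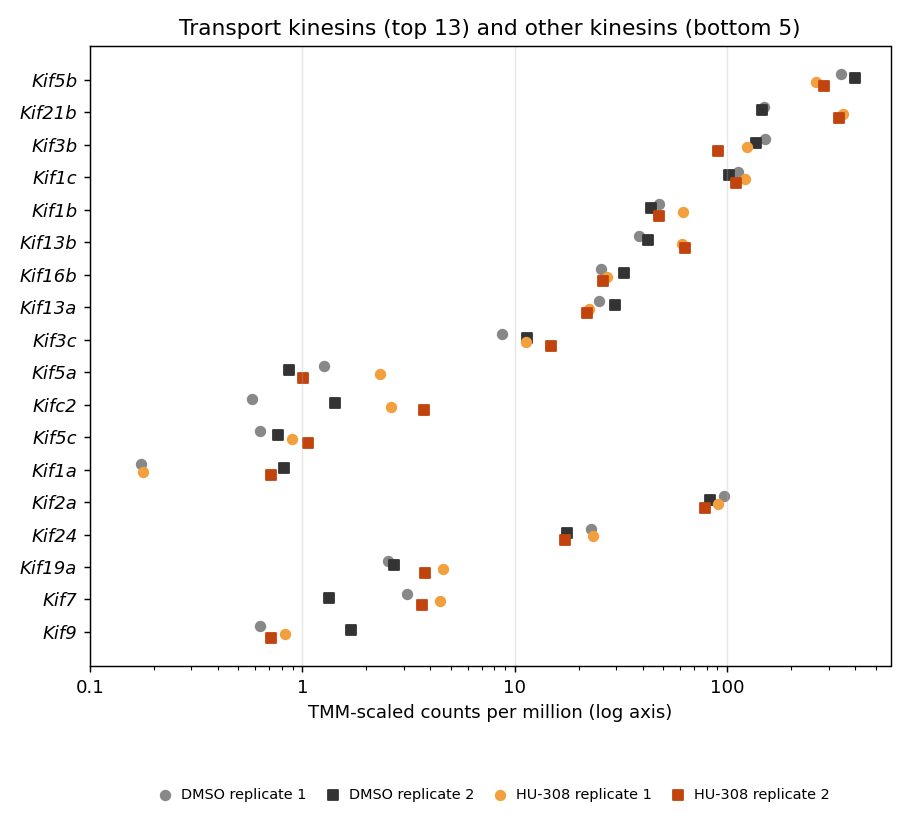
Level of the 13 tested transport kinesins and, at the bottom, the 5 tested other kinesins in each library, in TMM-scaled CPM on a log axis. The HU-308 points of Kif21b (351.0 and 335.3) stand clear of DMSO (149.3 and 145.1), while those of Kif5b lie to the left of DMSO.

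Genes that work with kinesins were read from 7 lists with 125 tested genes. None was called by unpaired edgeR or limma-voom, nor by limma on log2 FPKM. An unadjusted edgeR p under 0.05 was seen in 13 on the higher side (8.79% of all tested genes) and 4 on the lower side (9.97%). DESeq2 called Cdc25b and E2f2 higher (2.49% of its tested genes) and Camsap2 lower (4.56%), the last named here after its value was seen. Spindle and cytokinesis partners had 24 of 27 positive log2 fold changes with a median of 0.19, from −0.15 to 0.56. Cenpe, the kinetochore kinesin that the naming rule leaves out, stood at 283.7 and 239.9 CPM with DMSO and at 252.8 and 220.4 with HU-308 (−0.15 ± 0.15 SE). Numa1, which focuses spindle poles, stood at 315.5 and 312.4 CPM against 401.4 and 413.3 (0.38 ± 0.13). For Ckap5, a microtubule polymerase, and Incenp, a scaffold of the chromosomal passenger complex, the groups overlapped (−0.05 ± 0.16 and 0.18 ± 0.16). Mitotic entry and proliferation genes had a median of 0.29 with 10 of 13 positive. In that list Mki67, the proliferation marker, stood at 2366 and 2105 CPM against 2228 and 2034 (−0.07 ± 0.15), and Cdc25b, a phosphatase that starts mitosis, at 235.1 and 226.4 against 381.5 and 341.2 (0.65 ± 0.13). Top2a, which untangles DNA for chromosome separation, had means of 1823 ± 439 CPM with DMSO and 1643 ± 288 with HU-308 (SD, n = 2; −0.15 ± 0.23). The groups overlapped for Mki67, Top2a and the cyclin gene Ccna2 (0.15 ± 0.18) and were separate for Cdc25b.

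The 17 transcription factors of the mitotic program had a median log2 fold change of 0.16 with 11 positive. E2f2 stood at 195.2 and 167.7 CPM with DMSO and at 346.6 and 279.2 with HU-308 (0.79 ± 0.17 SE). Of the more abundant factors in that list, Rbl2, a pocket protein, and Tfdp1, an E2F partner, had overlapping groups (−0.001 ± 0.15 and −0.18 ± 0.29), while those of the pocket protein Rbl1 were separate (0.34 ± 0.20). Kinesin light chains and cargo adaptors had a median of 0.09 over 19 genes, 14 of them positive. Madd, an adaptor of kinesin-3 motors, stood at 173.0 and 199.7 CPM against 251.5 and 320.5 (0.62 ± 0.17), and Trak2, which links Kif5b to mitochondria, at 94.2 and 131.7 against 86.0 and 93.3 (−0.33 ± 0.19). Arl8b, a lysosomal GTPase that recruits kinesin, was also lower in both HU-308 libraries (−0.24 ± 0.13), and the adaptor Mapk8ip3 overlapped (−0.07 ± 0.16). The opposing motor dynein showed a median of −0.01 over 22 subunits and regulators, with its heavy chain Dync1h1 at 641.3 and 626.5 CPM against 533.3 and 520.4 (−0.27 ± 0.13). Its regulator Pafah1b1 was likewise lower in both HU-308 libraries (−0.24 ± 0.13), Nde1 was higher in both (0.28 ± 0.13), and the dynactin subunit Actr1a overlapped (−0.02 ± 0.13). Tubulins had a median of 0.08 over 12 genes, and the most abundant, Tubb5, stood at 1445 and 950.1 CPM against 1490 and 1211 (0.17 ± 0.24). The groups also overlapped for Tuba1b (−0.09 ± 0.34), Tuba4a (0.06 ± 0.15) and Tubb4b (0.10 ± 0.20). Plus-end and stability proteins had a median of −0.11 over 15 genes, with Mapre1, which tracks growing ends, at 298.2 and 290.6 CPM against 237.8 and 231.7 (−0.33 ± 0.12) and Mapre2 at 174.8 and 154.7 against 269.2 and 228.1 (0.59 ± 0.15). Stmn1, which destabilises microtubules, had separate groups (0.52 ± 0.22), and the stabiliser Map4 overlapped (0.01 ± 0.16).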

How the data were processed

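Total RNA extracted with TRIzol was made into libraries with a SMARTER mRNA kit, per the labels. The submitters' processing notes name RSEM 1.3.1, the aligner Bowtie2 2.3.4.3, DESeq2 1.4.5 and the build GRCm38 (mm10) but not how each was used; annotation release and strand setting are not given in the sources used here. The deposited read counts are unscaled whole numbers per gene and library, per the file headers. The deposited FPKM values are scaled by the authors for depth and for the length that their table lists. The authors' mean scaled signal per group, log2 fold change and p-value columns, per the file headers, were not used for the results.

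edgeR 4.0.16 under R 4.3.3 was run on the counts: filterByExpr (minimum count 10, minimum total 15), TMM scaling and the quasi-likelihood F test of HU-308 against DMSO without pairing, with 2 residual degrees of freedom and Benjamini-Hochberg adjustment at 0.05 over 14316 genes. The common biological coefficient of variation was 19.8%. Standard errors are the absolute log2 fold change over the square root of F; SDs are over 2 libraries. The steps were tested on simulated data. Alternatives used DESeq2 1.42.0, limma 3.58.1 (voom, and log2 FPKM with pseudocounts of 1 and 0.1), other scalings and filters, a replicate block and each library left out. The members, their classes, the partner lists and the motifs were chosen with earlier results of these data known. All members kept by the filter are named; from each list the 4 of highest mean CPM are. All 41 members are in GENCODE M21, 38 with the same coordinates. Exon overlap and shared 50-base stretches come from GENCODE M21, promoters from RefSeq. Plots used matplotlib 3.10.9 and Python 3.11.15.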

Additional observations from a re-analysis of the deposited data

How the results depend on the processing

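The kinesins called higher numbered 1 under RLE or library-size scaling, other filters, protein-coding genes only, DESeq2 and limma-voom, 0 with limma on log2 FPKM at either pseudocount, and 0 to 1 without 1 library; 0 were called lower in all of these. Of all genes called higher with HU-308, 12 in number, there were 190 with no low-count filter, 287 with DESeq2 and 0 with limma on log2 FPKM (1247 at an unadjusted p under 0.05, pseudocount 1). Of all genes called lower with HU-308, 33 in number, there were 371, 526 and 0 (1378 unadjusted) in the same order, 20 with at least 1 CPM in 2 libraries and 12 with library-size scaling, under which the all-gene median log2 fold change was 0.14 in place of 0.02. Leaving out 1 library gave 10 to 93 higher and 27 to 244 lower: 93 and 244 lacking DMSO replicate 2, 40 and 97 lacking HU-308 replicate 1, and 92 lower lacking DMSO replicate 1. The cause was not tested. A fit without 1 library has 1 residual degree of freedom and assumes that the lone library varies like the other group.

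Libraries of the same number share a number only, since no label pairs them and there are 2 pairs. Their deviations had a correlation of 0.58 over 12832 genes. With a replicate block, 12 of 31 tested kinesins were called higher and 2 lower. Of 14316 genes tested, the block gave 2394 among all genes called higher with HU-308 and 2445 among all genes called lower with HU-308. The mitotic Kif23, Kifc1, Kif18b, Kif20a and Kif22 were among the kinesins called higher, whereas Kif11, Kif4 and Kif20b were not called.

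The median log2 fold change of mitotic kinesins ranged from 0.11 to 0.50 without 1 library, that of transport kinesins from 0.059 to 0.47 and that of the other kinesins from −0.19 to 0.28, the last also 0.34 with at least 1 CPM in 2 libraries, a filter that leaves 4 genes. In 13 of 13 mitotic kinesins the log2 fold change was above 0 under each alternative but those lacking DMSO replicate 2 (8) or HU-308 replicate 1 (9). Kif21b kept a log2 fold change of 1.15 to 1.34; its adjusted p was 0.112 and 0.110 with limma on log2 FPKM. Levels on GENCODE M21 exon length were added after seeing the data. Neuronal and ciliary kinesins with under 100 reads per library are limited by depth.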
